A study of Mus musculus with 12 samples.

Results

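The mitosis genes described here are 38 protein-coding genes that act as a cell enters, passes through and leaves mitosis, from cyclin A2 and CDK1 to the proteins that pinch the daughter cells apart. They were taken by symbol from a table of 78317 mouse genes. Each symbol matched 1 identifier, and all 38 genes passed the filter on low counts that left 14012 genes for testing.

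RNA-seq was done on 4T1 cells, which come from a mouse mammary tumour and are labelled as triple negative breast cancer, in 4 groups of 3 biological replicates. The groups were control cells without treatment, control cells with 5 ng/ml TGFβ1, PBRM1 KO cells without treatment and PBRM1 KO cells with 5 ng/ml TGFβ1, given for 4 days. PBRM1 belongs to PBAF, one of the SWI/SNF chromatin remodellers, and TGFβ1 is a secreted ligand, acting through SMAD2 and SMAD3, that is known to slow the division of many epithelial cells. Titles name the untreated cells as 0 h while the protocol describes 4 days with or without the cytokine, so whether untreated cells spent the same time in culture is not settled by the labels. Library names mark the control cells sgCt and the KO cells sgPB. Where Pbrm1 was edited, and whether the KO cells were 1 clone, is not given in the sources used here.

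Mitosis runs on a wave of transcripts that peaks at the end of the cell cycle. The transcription factors MuvB-B-MYB and FOXM1 raise these genes in G2, and the DREAM complex, which holds the same MuvB core together with p130 or p107 and an E2F, represses them in resting cells. CDK1 with its cyclins starts mitosis, Polo and Aurora kinases build the spindle, kinetochores join chromosomes to it, the spindle checkpoint holds back CDC20 and the anaphase-promoting complex until every chromosome is attached, and a central spindle then directs the contractile ring. In a bulk sample, fewer dividing cells and less RNA per dividing cell cannot be told apart.

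Library totals ran from 9265693 to 11250850 counts, 22908 to 24402 genes were detected in each library, and mitochondrial transcripts took 5.45 to 6.87% of counts. Epithelial markers summed to between 2170 and 3080 counts per 1000000 (CPM, here on library sizes scaled by the trimmed mean of M values, TMM), with 7 of 8 at a group mean of 1 CPM or more. Leukocyte markers summed to 1.58 to 3.14 CPM, endothelial markers to 0.0931 to 1.41 CPM and fibroblast markers to 25.2 to 96.6 CPM, and no marker of these lists was at 0 in every library. In the average TGFβ1 comparison 2 of the 5 tested fibroblast markers rose, Pdgfrb (3.69 ± 0.66 on the log2 scale, adjusted p = 0.00148, from group means of 0.406 and 0.15 CPM untreated to 2.2 and 5.25 CPM) and Col1a1 (1.05 ± 0.33, adjusted p = 0.0312). Their summed level was 25.2 to 45.4 CPM in untreated and 26.4 to 96.6 CPM in TGFβ1 libraries. Of the 7 tested epithelial markers 4 fell (Cdh1, Krt8, Krt18 and Krt19, by 0.30 to 0.92) and 2 rose (Krt7 by 0.46 and Krt14 by 1.82), and their sum was 2740 to 3080 CPM in untreated and 2170 to 3000 CPM in TGFβ1 libraries. The part of these shifts in the results on mitosis genes was not tested. Pbrm1 was at 323, 264 and 263 CPM in untreated control cells and at 247, 207 and 223 CPM in untreated KO cells, a log2 difference of −0.33 ± 0.10 (SE, edgeR quasi-likelihood test with Benjamini-Hochberg adjusted p = 0.349). With TGFβ1 it was at 290, 290 and 280 CPM in control and 268, 233 and 225 CPM in KO cells. Counts at the 3′ end need not read the edited stretch, so they check neither the edit nor the protein. The TGFβ1 replicate 3 library of each genotype stood apart from the other two: the median of 11 tested TGFβ-SMAD target genes lay 0.33 (control) and 0.32 (KO) above untreated control cells on the log2 scale in replicate 3, against 1.24 and 1.15 in control replicates 1 and 2 and 1.13 and 1.02 in KO replicates 1 and 2. Counts of genes called with TGFβ1, and each gene described whose call in the average changed, are therefore given without both replicate 3 libraries too. Leaving out the libraries with the smallest TGFβ1 change in these target genes favours larger changes in the rest, so calls gained in that way are not separate support.

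Many mitotic promoters are known to carry CCAAT boxes, which bind the factor NF-Y, and a cell cycle homology region (CHR), which binds the MuvB core shared by the activating and the repressing complex. RefSeq promoter windows of GRCm38.p6, from 250 bases before to 50 bases after the start site, were at hand for 32 of the 38 genes. Ccna2, Cdc25c, Tpx2, Aurkb, Dlgap5 and Kif20a had no entry. The stretches of 130 bases before the start site of 6 genes that held both motifs there are printed below to show how the motifs sit, and Nusap1, the gene with the smallest p for TGFβ1 in the average over genotypes and in control cells, though not called in KO cells, is printed as one that held neither. Capitals mark CCAAT or its reverse complement ATTGG, and TTTGAA or its reverse complement TTCAAA, which is the CHR. Each runs 5′ to 3′ in the direction of transcription and ends at the base before the start site.
Cdk1 (chr10:69352913-69353042, minus strand): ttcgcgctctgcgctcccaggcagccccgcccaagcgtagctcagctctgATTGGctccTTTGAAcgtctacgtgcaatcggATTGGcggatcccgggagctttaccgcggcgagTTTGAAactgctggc
Cdc20 (chr4:118437344-118437473, minus strand): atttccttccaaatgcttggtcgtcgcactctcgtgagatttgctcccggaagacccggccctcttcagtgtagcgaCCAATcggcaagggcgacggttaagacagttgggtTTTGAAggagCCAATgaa
Ube2c (chr2:164769799-164769928, plus strand): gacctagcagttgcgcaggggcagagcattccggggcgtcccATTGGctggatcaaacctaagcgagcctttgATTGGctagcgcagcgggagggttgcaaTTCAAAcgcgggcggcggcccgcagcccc
Kif11 (chr19:37376252-37376381, plus strand): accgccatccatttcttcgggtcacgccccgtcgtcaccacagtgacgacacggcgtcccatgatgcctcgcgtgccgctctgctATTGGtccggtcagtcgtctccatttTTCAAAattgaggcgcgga
Ect2 (chr3:27153879-27154008, minus strand): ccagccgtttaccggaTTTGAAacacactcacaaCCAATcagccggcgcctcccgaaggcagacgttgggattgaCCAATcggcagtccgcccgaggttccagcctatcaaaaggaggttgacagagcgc
Top2a (chr11:99024190-99024319, minus strand): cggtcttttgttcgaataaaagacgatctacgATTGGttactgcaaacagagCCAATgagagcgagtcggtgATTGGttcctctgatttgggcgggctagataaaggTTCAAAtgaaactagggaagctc
Nusap1 (chr2:119618168-119618297, plus strand): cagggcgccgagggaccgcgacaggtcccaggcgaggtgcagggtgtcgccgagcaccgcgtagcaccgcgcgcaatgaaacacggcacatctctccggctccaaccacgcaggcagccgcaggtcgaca

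In these stretches Cdk1 held 2 CCAAT boxes, whose first bases lay 80 and 48 bases before the start, and 2 CHRs, at 71 and 15 bases before it. Top2a held 3 CCAAT boxes, at 98, 78 and 58 bases before the start, and a CHR at 23 bases. Over the whole windows, 25 of 32 genes (78.1%) held a CCAAT box on either strand, against 37.9% of 27025 promoters of the same length, and 18 (56.2%) held at least 2, against 12.2%. A CHR was found in 25 of 32 windows (78.1%) against 18.1% of all promoters, and both motifs in 22 (68.8%) against 7.12%. Of the 31 CHR matches 18 began at or after the start site, whereas 59 of 61 CCAAT boxes began before it. Counting only the bases before the start site therefore left 9 genes (28.1%) with a CHR, against 16.3% of all promoters, and 8 (25.0%) with both motifs, against 5.73%. In 1 window, that of Cdca8, a CCAAT box and a CHR overlapped. These are matches of letters, not sites shown to be bound, and no match says only that the letters are not in the window.

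**Figure D1:**
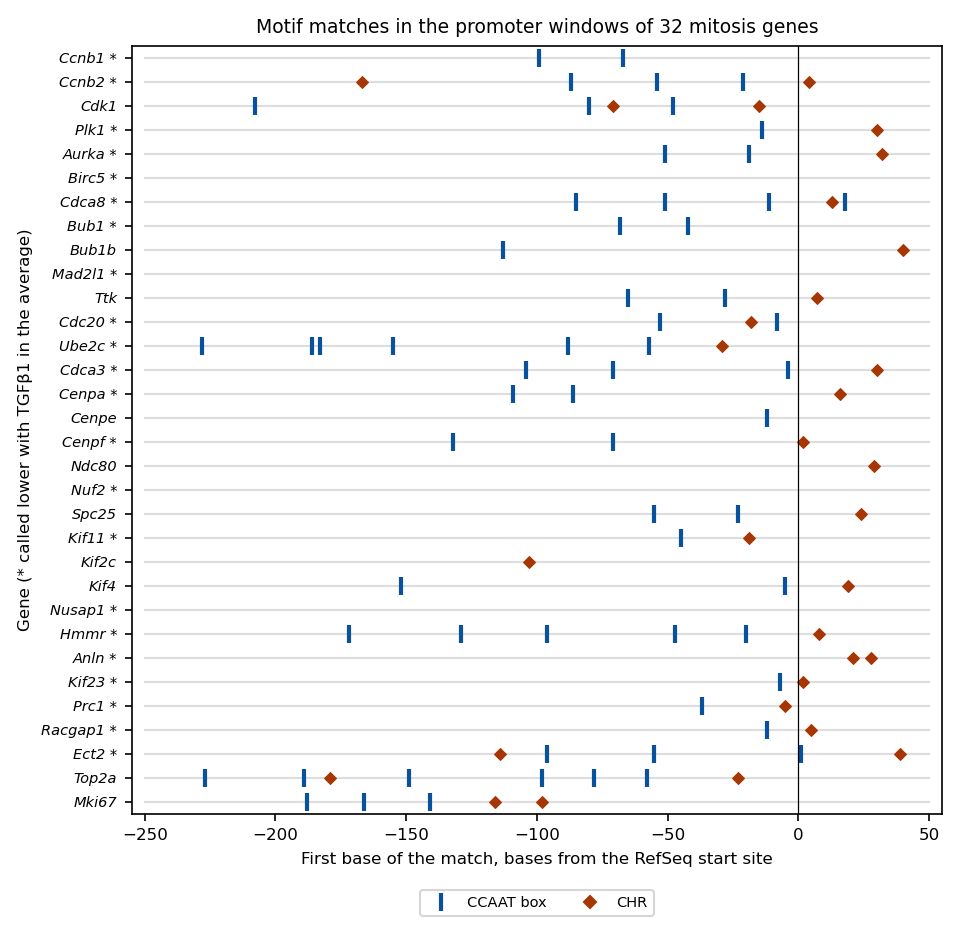
Positions of CCAAT boxes (blue bars) and CHRs (brown diamonds) on either strand in the 300-base promoter windows of 32 mitosis genes, in bases from the RefSeq start site on the horizontal axis. CCAAT boxes lie upstream in most rows, 18 of the 31 CHRs begin at or after the start, and genes with an asterisk (lower with TGFβ1 in the average over genotypes) occur with and without either motif.

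Most mitosis genes fell with TGFβ1 in the average over genotypes, and fewer passed within each genotype. Averaged over control and KO cells, which uses all 12 libraries for 1 difference, 27 of 38 fell and 0 rose at an adjusted p below 0.05, where 10.6% of all tested genes were lower and 15.1% higher. The list was chosen with earlier results of these data known, so this is not an unselected comparison. All 38 log2 fold changes were negative, from −0.55 to −0.02, with a median of −0.30 against 0.00 over all tested genes. The changes were small: the furthest, of the contractile ring scaffold Anln, was to 0.685 times the untreated level. In 13 of the 38 genes (34.2%) all 6 TGFβ1 libraries lay below all 6 untreated ones, as they did for 3.84% of all tested genes. The fit takes the 12 libraries as independent. Same-numbered TGFβ1 libraries of the genotypes deviated together, however, with correlations of 0.396, 0.416 and 0.726 over all tested genes. The averaged calls and this separation may thus rest on less replication than 6 against 6 libraries. How far that affects the p-values was not tested. Of the 27 falls, 19 held in each of the 12 fits that left out 1 library, and 21 to 31 genes fell over those fits. Without both TGFβ1 replicate 3 libraries 30 fell, where 19.3% of all tested genes were lower, 26 of them were among the 27, and the median was −0.35. Cdk1, Bub1b, Ttk and Kif2c were the 4 gained. As the libraries left out were those nearest to untreated cells in the median of the mitosis genes, larger falls without them are no separate support. Cenpf was the gene that dropped out, at −0.31 ± 0.13 (adjusted p = 0.0609).

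**Figure D2:**
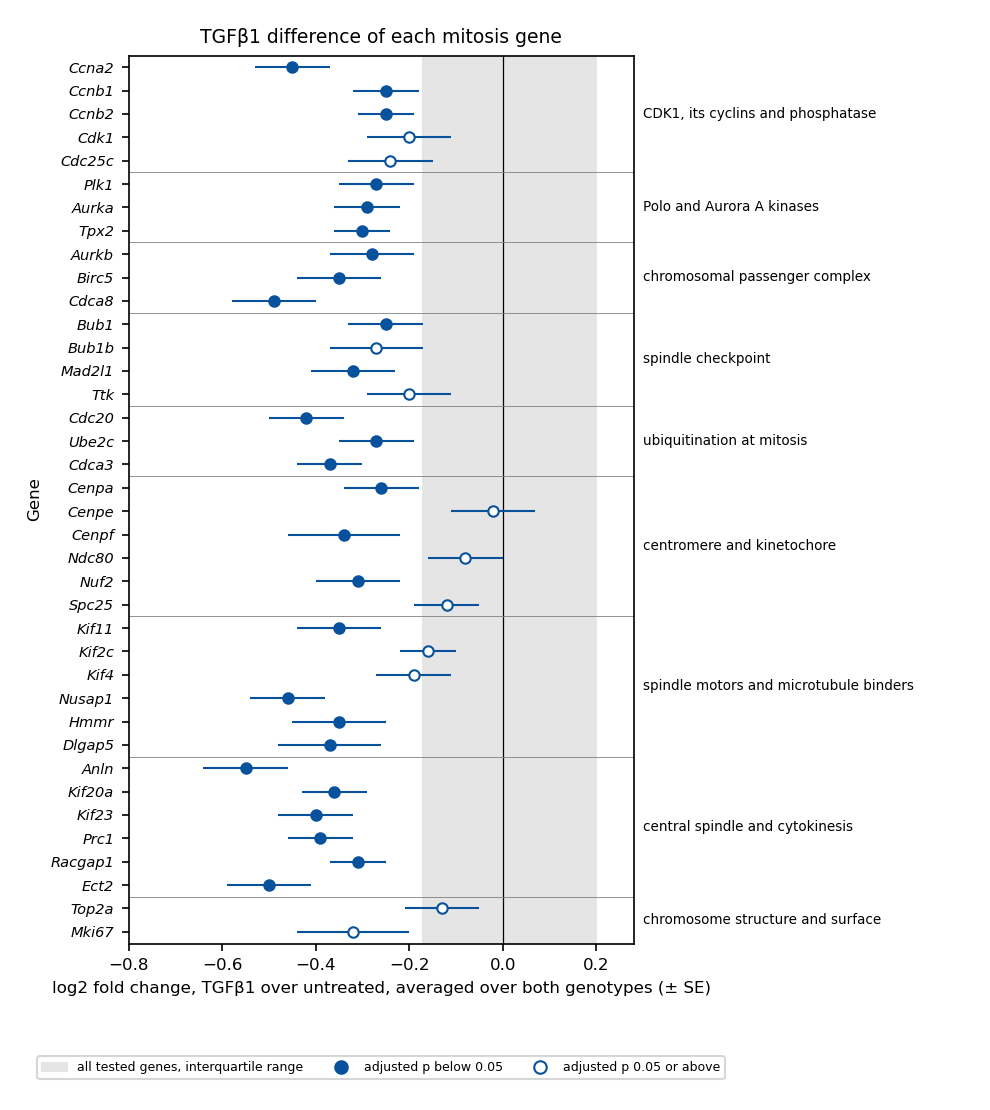
log2 fold change of each mitosis gene between TGFβ1 and untreated cells, averaged over both genotypes (points, with bars of 1 SE), grouped by role. Filled points passed an adjusted p of 0.05. All 38 points lie left of 0, the 6 cytokinesis genes are all filled, and Cenpe sits at −0.02; the grey band spans the interquartile range of all tested genes.

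The library medians show the same order in each genotype. Measured from the mean of untreated control cells, the median of the 38 genes was 0.05, 0.04 and −0.08 in untreated control cells and −0.33, −0.33 and −0.20 with TGFβ1. In KO cells it was 0.10, −0.04 and −0.06 untreated and −0.41, −0.39 and −0.21 with TGFβ1. All 6 TGFβ1 medians lay below all 6 untreated ones, and in both genotypes TGFβ1 replicate 3 was nearest to the untreated libraries. Of the 38 genes, 28 had their highest TGFβ1 value in replicate 3 in control cells and 29 did in KO cells. Together the 38 genes took 0.54, 0.521 and 0.486% of counts in untreated control libraries and 0.409, 0.408 and 0.459% with TGFβ1, and 0.541, 0.509 and 0.49% against 0.39, 0.39 and 0.448% in KO cells.

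**Figure D3:**
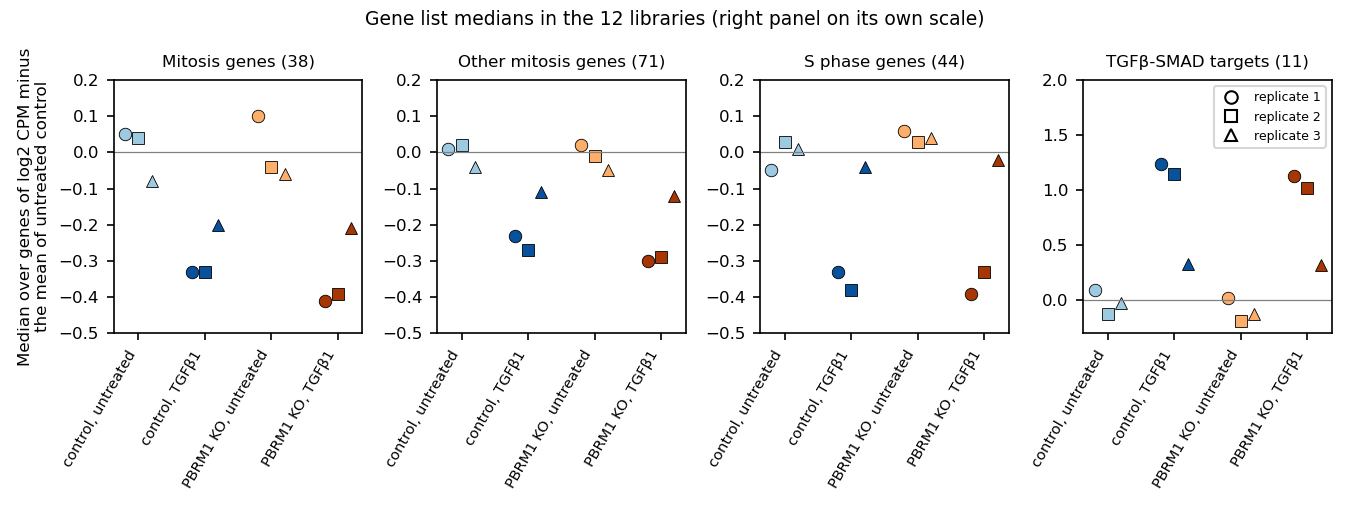
Median over the genes of a list of log2 CPM minus the mean of untreated control cells, in each of the 12 libraries (marker shape gives the replicate, colour the group). The mitosis genes lie between −0.41 and −0.20 in the 6 TGFβ1 libraries; replicate 3 (triangles) is nearer 0 than the other replicates, and for S phase genes it lies at −0.04 and −0.02.

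The heat map of the 38 genes shows where single genes departed from that order. Untreated KO replicate 1 was the highest of its group for 22 genes, with Mki67 and Cenpf furthest above, and untreated control replicate 1 was the highest of its group for 21. Over the 12 libraries the 703 pairs of genes had a median Pearson correlation of 0.682 in log2 CPM, from −0.19 to 0.984, and 691 were positive. After each group's mean was subtracted the median was 0.388, from −0.673 to 0.976. The pairs share libraries and treatment, so these are descriptions. Cdca8 had the highest mean correlation with the other members (0.771) and Cenpe the lowest (0.176).

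**Figure D4:**
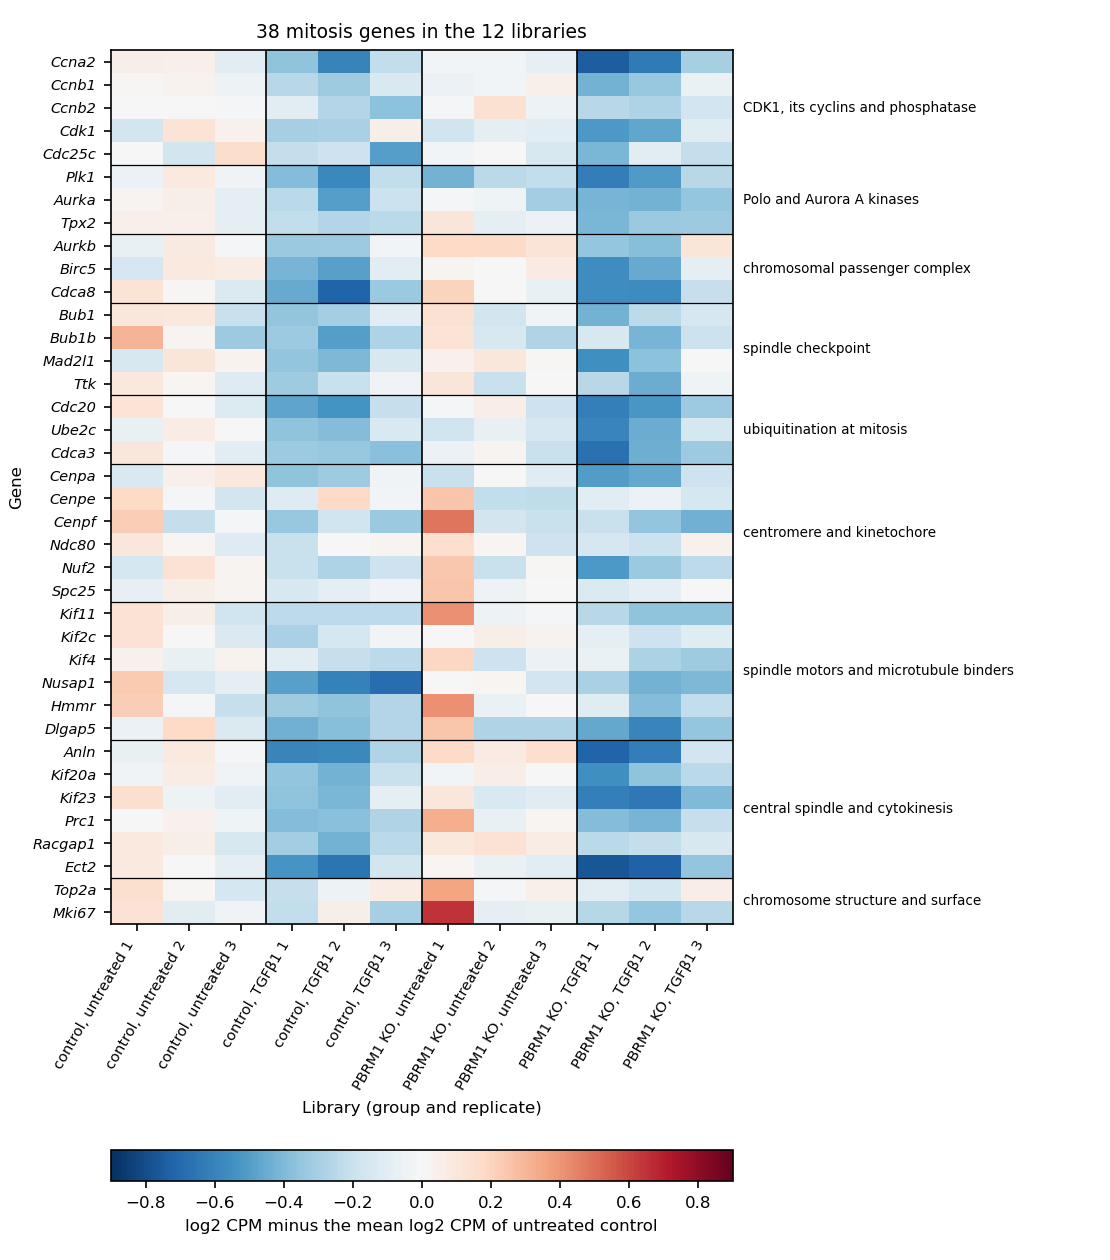
log2 CPM of the 38 mitosis genes (rows, grouped by role) in the 12 libraries (columns, by group and replicate), minus each gene's mean in untreated control cells; blue is lower and red higher. The 6 TGFβ1 columns are mostly blue, paler in both replicate 3 columns, and untreated KO replicate 1 holds the deepest red, in Mki67.

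CDK1, its cyclins and its activating phosphatase open mitosis. Of the 5 genes, the 3 cyclin genes fell in the average and Cdk1 and Cdc25c did not pass, with a median of −0.25. Ccna2 encodes cyclin A2, which drives S phase with CDK2 and the entry into mitosis with CDK1. It was at 370, 367 and 333 CPM in untreated control cells and 277, 235 and 306 CPM with TGFβ1, and at 350, 351 and 338 CPM in untreated KO cells and 213, 229 and 290 CPM with TGFβ1. All 6 TGFβ1 libraries were below all 6 untreated ones. The averaged log2 difference was −0.45 ± 0.08 (adjusted p = 0.00184). It was −0.50 ± 0.12 in KO cells (adjusted p = 0.0157) and −0.39 ± 0.12 in control cells (adjusted p = 0.0563). Ccnb1 and Ccnb2, the B cyclins, both fell by 0.25 (adjusted p = 0.0154 and 0.00855). The count of Ccnb1 was fractional in 11 libraries, as when reads are divided among genes, which was not tested. Its pseudogene Ccnb1-ps held 70.4 counts over all libraries. Cdk1 itself was at −0.20 ± 0.09 (adjusted p = 0.109) and was lower without both TGFβ1 replicate 3 libraries (−0.34 ± 0.06, adjusted p = 0.0007). Cdc25c, which removes the inhibitory phosphates of CDK1, was at −0.24 ± 0.09 (adjusted p = 0.0668).

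All 3 genes of the Polo and Aurora A group fell in the average, with a median of −0.29. Tpx2 encodes the spindle protein that activates Aurora A on microtubules. Its values were 90.1, 90.3 and 82.3 CPM in untreated control cells and 75.2, 72.9 and 73.9 CPM with TGFβ1, and 94.2, 82.3 and 84.4 CPM in untreated KO cells and 65.8, 69.4 and 69.7 CPM with TGFβ1. Every TGFβ1 library was below every untreated one, replicate 3 included. The averaged difference was −0.30 ± 0.06 (adjusted p = 0.002), and in KO cells alone −0.35 ± 0.08 (adjusted p = 0.0133). Aurka, which encodes Aurora A, fell by 0.29 (adjusted p = 0.00909). Plk1, the Polo-like kinase of spindle assembly and mitotic exit, was at 75.0, 82.6 and 76.2 CPM in untreated control cells and 59.4, 52.0 and 66.8 CPM with TGFβ1. In KO cells it was at 58.0, 65.8 and 66.7 CPM without and 50.5, 54.8 and 65.5 CPM with TGFβ1. The control groups did not overlap and the KO groups did. Plk1 fell by 0.27 ± 0.08 in the average (adjusted p = 0.0246), a call kept in 6 of the 12 fits without 1 library.

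The chromosomal passenger complex corrects attachments at centromeres and later moves to the midzone. Its 3 genes in the list, Aurkb, Birc5 and Cdca8, all fell in the average, with a median of −0.35. Cdca8 (ENSMUSG00000028873) encodes borealin, which targets the complex to centromeres. It was at 211, 196 and 177 CPM in untreated control cells and 142, 118 and 154 CPM with TGFβ1, and at 223, 194 and 185 CPM in untreated KO cells and 132, 131 and 168 CPM with TGFβ1. All TGFβ1 values were below all untreated ones. The difference was −0.49 ± 0.09 in the average (adjusted p = 0.0015), −0.50 ± 0.13 in control cells (adjusted p = 0.0278) and −0.49 ± 0.12 in KO cells (adjusted p = 0.0246). Aurkb, the kinase of the complex, was at 66.1, 73.4 and 68.8 CPM in untreated control cells and 55.1, 55.4 and 68.2 CPM with TGFβ1. In KO cells it was at 78.7, 78.2 and 75.3 CPM without and 54.5, 53.1 and 74.9 CPM with TGFβ1. Replicate 3 with TGFβ1 lay within the untreated range in control cells and just below it in KO cells. Aurkb fell by 0.28 ± 0.09 in the average (adjusted p = 0.0329), a call kept in 4 of the 12 fits without 1 library. Birc5, survivin, fell by 0.35 (adjusted p = 0.0134).

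The spindle checkpoint had 2 falls among 4 genes, Mad2l1 and Bub1, with a median of −0.26. Mad2l1 encodes MAD2, which binds CDC20 while kinetochores are unattached. It was at 78.4, 93.6 and 88.8 CPM in untreated control cells and 67.8, 65.4 and 78.4 CPM with TGFβ1, and at 89.0, 92.9 and 87.3 CPM in untreated KO cells and 59.1, 67.2 and 87.0 CPM with TGFβ1. Replicate 3 with TGFβ1 met the lowest untreated value in control cells and lay just under it in KO cells. The averaged difference was −0.32 ± 0.09 (adjusted p = 0.0205), and it did not pass without untreated control replicate 2, control TGFβ1 replicate 2 or KO TGFβ1 replicate 2 (adjusted p = 0.0523, 0.0526 and 0.0513). Bub1, a checkpoint kinase, fell by 0.25 (adjusted p = 0.0388), a call kept in 4 of the 12 fits without 1 library. Bub1b, which encodes BUBR1, was at −0.27 ± 0.10 (adjusted p = 0.0709) and Ttk, the kinase MPS1, at −0.20 ± 0.09 (adjusted p = 0.127). Both passed without both TGFβ1 replicate 3 libraries, at −0.31 ± 0.11 and −0.29 ± 0.09 (adjusted p = 0.038 and 0.0143).

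The ubiquitination group holds the activator and the E2 enzyme of the anaphase-promoting complex (APC/C) and Cdca3, an F-box-like protein of mitotic entry. All 3 fell in the average, with a median of −0.37. Cdc20 (ENSMUSG00000006398), the activator, was at 536, 491 and 453 CPM in untreated control cells and 354, 339 and 426 CPM with TGFβ1, and at 489, 514 and 433 CPM in untreated KO cells and 321, 343 and 393 CPM with TGFβ1. All TGFβ1 libraries were below all untreated ones. Cdc20, whose promoter held a CHR between 2 CCAAT boxes, fell by 0.42 ± 0.08 in the average (adjusted p = 0.00173), by 0.40 ± 0.11 in control cells (adjusted p = 0.0387, a call kept in 5 of 12 fits without 1 library) and by 0.44 ± 0.11 in KO cells (adjusted p = 0.0215). Ube2c, the E2 enzyme, fell by 0.27 (adjusted p = 0.019) and Cdca3 by 0.37 (adjusted p = 0.00184).

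Of 6 centromere and kinetochore genes 3 fell in the average, Cenpa, Cenpf and Nuf2, with the median of the group at −0.19. The group included the genes nearest to no change. Nuf2, a subunit of the NDC80 complex that grips microtubules, was at 23.1, 28.3 and 26.3 CPM in untreated control cells and 22.5, 21.3 and 22.7 CPM with TGFβ1, and at 30.5, 22.5 and 26.0 CPM in untreated KO cells and 18.0, 20.5 and 21.9 CPM with TGFβ1. Untreated and TGFβ1 libraries did not overlap within a genotype, by less than 1 CPM. The difference was −0.31 ± 0.09 (adjusted p = 0.0228), and it did not pass without untreated control replicate 2 (adjusted p = 0.0535) or KO TGFβ1 replicate 1 (adjusted p = 0.0627). The other subunits of that complex in the list, Ndc80 and Spc25, were at −0.08 ± 0.08 and −0.12 ± 0.07 (adjusted p = 0.505 and 0.273). Whether they differ from Nuf2 was not tested. Cenpa, the histone H3 variant of centromeres, fell by 0.26 (adjusted p = 0.031) and Cenpf, a large kinetochore protein, by 0.34 (adjusted p = 0.0445), while the kinesin Cenpe, which carries chromosomes to the metaphase plate, was at −0.02 ± 0.09 (adjusted p = 0.905). The calls of Cenpa and Cenpf were each kept in 4 of the 12 fits without 1 library, and that of Cenpf in 6 of 9 other settings.

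Spindle motors and microtubule binders had 4 falls among 6 genes and a median of −0.35. Nusap1 (ENSMUSG00000027306), which bundles spindle microtubules near chromosomes, was at 75.1, 57.6 and 60.3 CPM in untreated control cells and 45.6, 41.9 and 39.8 CPM with TGFβ1. In KO cells it was at 63.8, 64.6 and 56.6 CPM without and 52.2, 47.6 and 48.2 CPM with TGFβ1. All TGFβ1 libraries were below all untreated ones, and replicate 3 was the lowest with TGFβ1 in control cells, unlike most members. Nusap1 fell by 0.46 ± 0.08 in the average (adjusted p = 0.00083) and by 0.60 ± 0.11 in control cells (adjusted p = 0.00459), a control call kept in each of the 12 fits without 1 library. In KO cells its difference was −0.32 ± 0.11 (adjusted p = 0.0712). Kif11, the kinesin that pushes spindle poles apart, fell by 0.35 (adjusted p = 0.00981). Hmmr and Dlgap5, which bind spindle microtubules, fell by 0.35 and 0.37 (adjusted p = 0.0173 and 0.0222). Kif2c, a kinesin that takes microtubules apart, and the chromokinesin Kif4 were at −0.16 ± 0.06 and −0.19 ± 0.08 (adjusted p = 0.0875 and 0.0949). Kif2c passed once both replicate 3 libraries with TGFβ1 were left out, at −0.20 ± 0.07 (adjusted p = 0.0279).

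In the central spindle and cytokinesis group 6 of 6 genes fell in the average, with a median of −0.39. In KO cells 6 of 6 fell and in control cells 3 of 6, where 3.72% and 2.91% of all tested genes were lower. Of the 12 fits without 1 library, these KO calls were kept in 7 to 10 and the control calls in 3 to 8. Without KO TGFβ1 replicate 1, 0 of the 38 genes fell in KO cells, where 1.26% of all tested genes were lower. Anln (ENSMUSG00000036777), anillin, was at 147, 164 and 152 CPM in untreated control cells and 102, 103 and 128 CPM with TGFβ1, and at 174, 162 and 171 CPM in untreated KO cells and 93.7, 100 and 137 CPM with TGFβ1. All TGFβ1 libraries were below all untreated ones, with replicate 3 the highest of each TGFβ1 group. The difference was −0.55 ± 0.09 in the average (adjusted p = 0.00105), −0.47 ± 0.13 in control cells (adjusted p = 0.0414) and −0.62 ± 0.13 in KO cells (adjusted p = 0.00997). Of the 12 fits without 1 library the control call was kept in 4 and the KO call in 10. Ect2, the exchange factor that activates RhoA at the cell equator, was at 123, 115 and 109 CPM in untreated control cells and 79.9, 73.1 and 103 CPM with TGFβ1, and at 117, 111 and 108 CPM in untreated KO cells and 67.8, 69.6 and 90.4 CPM with TGFβ1. These groups did not overlap either. The difference was −0.50 ± 0.09 in the average (adjusted p = 0.00178), −0.56 ± 0.13 in KO cells (adjusted p = 0.0161) and −0.44 ± 0.13 in control cells (adjusted p = 0.0525).

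Kif23 and Racgap1 encode the subunits of centralspindlin, which bundles midzone microtubules and recruits ECT2. Kif23 was at 176, 154 and 149 CPM in untreated control cells and 124, 120 and 150 CPM with TGFβ1, and at 171, 145 and 148 CPM in untreated KO cells and 104, 102 and 121 CPM with TGFβ1. The KO groups did not overlap, and in control cells replicate 3 with TGFβ1 lay within the untreated range. Kif23 fell by 0.40 ± 0.08 in the average (adjusted p = 0.00279) and by 0.50 ± 0.11 in KO cells (adjusted p = 0.0119). Racgap1 was at 137, 134 and 117 CPM in untreated control cells and 104, 95.9 and 109 CPM with TGFβ1, and at 138, 141 and 135 CPM in untreated KO cells and 109, 111 and 117 CPM with TGFβ1. Its groups did not overlap within a genotype. It fell by 0.31 ± 0.06 in the average (adjusted p = 0.00194), by 0.33 ± 0.08 in control cells (adjusted p = 0.0269) and by 0.29 ± 0.08 in KO cells (adjusted p = 0.0372).

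Kif20a, the kinesin that moves the passenger complex to the midzone, also had fractional counts in 11 libraries. It was at 106, 114 and 106 CPM in untreated control cells and 85.0, 81.0 and 94.7 CPM with TGFβ1, and at 107, 113 and 109 CPM in untreated KO cells and 73.9, 84.7 and 91.7 CPM with TGFβ1. All TGFβ1 values were below all untreated ones. Kif20a fell by 0.36 ± 0.07 in the average (adjusted p = 0.0016), and Prc1, which bundles the midzone microtubules, by 0.39 (adjusted p = 0.00193).

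Neither of the 2 chromosome genes passed in the average. Mki67 encodes Ki-67, the coat of mitotic chromosomes and a widely used mark of cycling cells. It was at 113, 96.2 and 101 CPM in untreated control cells and 88.6, 107 and 83.8 CPM with TGFβ1, and at 162, 97.2 and 98.4 CPM in untreated KO cells and 86.3, 81.0 and 86.7 CPM with TGFβ1. The KO groups did not overlap, with untreated replicate 1 far above the other libraries, and the control groups did. The averaged difference was −0.32 ± 0.12 (adjusted p = 0.0628). It passed with DESeq2 (adjusted p = 0.0413), with no filter on low counts (0.000812), with the replicate number as a block (0.0346) and without control TGFβ1 replicate 2, KO untreated replicate 2 or 3 or KO TGFβ1 replicate 3 (0.0429, 0.0297, 0.0306 and 0.0462). It did not pass without both TGFβ1 replicate 3 libraries (−0.30 ± 0.13, adjusted p = 0.0748). Top2a, topoisomerase IIα, which untangles sister DNA, was at −0.13 ± 0.08 (adjusted p = 0.251). Both genes had fractional counts in 10 or more libraries.

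Within the genotypes fewer genes passed. In control cells 7 of 38 fell and 0 rose (Nusap1, Racgap1, Cdca8, Cdc20, Anln, Cdca3 and Kif20a), where 2.91% of all tested genes were lower and 5.89% higher, with a median of −0.29 and 37 negative values. In KO cells 12 fell and 0 rose, where 3.72% of all tested genes were lower and 7.65% higher, with a median of −0.33 and 38 negative values. In both genotypes 6 genes fell, 85.7% of those in control cells and 50.0% of those in KO cells. The 2 comparisons have no library in common but share 1 fit and its estimate of the spread. Same-numbered TGFβ1 libraries of the genotypes also deviated together (correlations of 0.396, 0.416 and 0.726). The overlap is thus not that of independent experiments, and it was not counted over all tested genes. Separation of the libraries gave higher counts: TGFβ1 and untreated libraries did not overlap, with TGFβ1 below, for 22 genes in control cells (57.9%, against 11.5% of all tested genes) and 24 in KO cells (63.2%, against 14.0%). These counts turned on single libraries. In control cells 1 gene fell without untreated replicate 1, untreated replicate 2, TGFβ1 replicate 1 or TGFβ1 replicate 2. Of all tested genes 1.83, 1.37, 1.45 and 1.02% were lower in those fits. Without untreated replicate 3 it was 3 genes (1.45% of all tested genes), and without TGFβ1 replicate 3 it was 15 (6.31%). In KO cells 0 fell without TGFβ1 replicate 1, 1 without TGFβ1 replicate 2, 2 without untreated replicate 1, 6 without untreated replicate 2 and 21 without TGFβ1 replicate 3. Of all tested genes 1.26% were lower in the first of these fits and 9.3% in the last. Over the 12 fits without 1 library each control call was kept in 3 to 12 and each KO call in 7 to 10. Without both TGFβ1 replicate 3 libraries 20 fell in control cells, the 7 among them, and 23 in KO cells, the 12 among them, while the number lower among all tested genes rose as well, from 408 to 1426 in control and from 521 to 1707 in KO cells. In control cells Ccna2 and Ect2 were among those gained, at −0.48 ± 0.09 and −0.60 ± 0.09 (adjusted p = 0.00132 and 0.000175). With the replicate number as a block, 22 fell in KO cells, where 7.84% of all tested genes were lower.

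**Figure D5:**
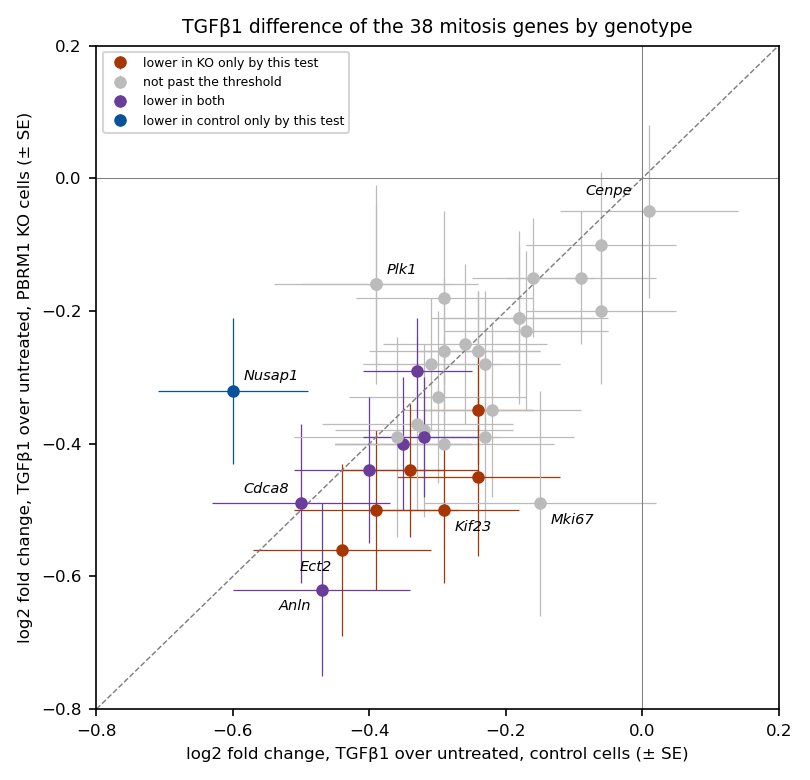
log2 fold change with TGFβ1 in control cells (horizontal) against PBRM1 KO cells (vertical) for the 38 mitosis genes, with bars of 1 SE and the line of equal change dashed; colour shows in which genotype the gene passed an adjusted p of 0.05. Most points lie near the line, with Nusap1 at −0.60 in control and −0.32 in KO cells and Mki67 at −0.15 and −0.49.

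The difference between genotypes in the TGFβ1 change was tested as an interaction. At an adjusted p below 0.05, 0 of 38 genes were called in either direction, as were 0.0% of all tested genes lower and 0.0% higher. An unadjusted p below 0.05 was found for 0 of the 38 and for 247 of the 14012 tested genes. The interaction ran from −0.35 to 0.28 with errors of 0.11 to 0.24 and a median of −0.04. No setting or tool tried called a member. The smallest p was that of Nusap1, at 0.28 ± 0.15 (unadjusted p = 0.0855, adjusted p = 1.0), and next came Mki67, at −0.35 ± 0.24 (unadjusted p = 0.168, adjusted p = 1.0).

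Loss of PBRM1 itself came with no call among the mitosis genes. Without TGFβ1, 0 of 38 were lower or higher, where 0.236% of all tested genes were lower and 0.0428% higher, and the median was −0.01. With TGFβ1, 0 were lower or higher, where 0.2% of all tested genes were lower and 0.0714% higher, and the median was −0.04. Averaged over treatments, 0 were lower or higher, where 1.28% were lower and 0.678% higher, with a median of −0.02 and values from −0.18 to 0.11 with errors of 0.06 to 0.12. In each of these 3 comparisons edgeR gave 1 member with an unadjusted p below 0.05, beside 1065, 1194 and 1861 of the 14012 tested genes. No setting or tool tried, DESeq2 and limma-voom included, called any member. Plk1 came nearest: it was lower in untreated KO cells than in untreated control cells in all libraries, at −0.29 ± 0.11 (unadjusted p = 0.0225, adjusted p = 0.536), and was at −0.18 ± 0.08 in the average (adjusted p = 0.37). Aurkb was higher in all untreated KO than control libraries, at 0.16 ± 0.13 (adjusted p = 0.91). Such separation was common: untreated KO libraries lay below all untreated control libraries for 8.7% of all tested genes and above them for 7.19%. Among the 38 genes it held for 1 in each direction. With TGFβ1, Kif23 was at −0.27 ± 0.11 (adjusted p = 0.513) and Nusap1 at 0.22 ± 0.11 (adjusted p = 0.619).

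The TGFβ1 change was set beside the motif counts as a description. Of 18 members with at least 2 CCAAT boxes 12 fell in the average, with a median of −0.26. With 1 box 5 of 7 fell (−0.31), and with none 5 of 7 (−0.32). With a CHR 16 of 25 fell (−0.29), and without one 6 of 7 (−0.31). The 4 members with neither motif in the window, Birc5, Mad2l1, Nuf2 and Nusap1, all fell. Of the 6 with 2 CHRs, Ccnb2, Anln and Ect2 fell and Cdk1, Top2a and Mki67 did not pass.

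Other genes of the pathway were counted from lists kept apart from the 38 but, like them, chosen with earlier results of these data known. Each count stands beside 10.6% of all tested genes lower and 15.1% higher. Of 71 other mitosis genes 29 fell and 0 rose in the average, with a median of −0.22, led by Spc24, the fourth NDC80 complex subunit (−0.65 ± 0.10, adjusted p = 0.000385), the kinesin Kif18a (−0.54 ± 0.08, 0.000466) and the spindle protein Tacc3 (−0.36 ± 0.06, 0.000853). Of 8 condensin subunits 5 fell, with a median of −0.27 and Ncapd2 at −0.41 ± 0.08 (adjusted p = 0.00226). The list medians of cohesin and the APC/C were nearer to 0: 0 of 10 cohesin subunits and loaders passed (median −0.04, 0 with an unadjusted p below 0.05), and of 16 APC/C genes 2 fell and 1 rose (median −0.10), Anapc15 and Anapc5 lower and Cdc27 higher (−0.52 ± 0.10, −0.21 ± 0.06 and 0.26 ± 0.08). The APC/C shares are near those over all tested genes. An unadjusted p below 0.05 was found for 5343 of the 14012 tested genes in this comparison. Without both TGFβ1 replicate 3 libraries, where 19.3% of all tested genes were lower and 22.1% higher, 46 of the 71 other mitosis genes, 6 of 8 condensin, 0 of 10 cohesin and 3 of 16 APC/C genes fell, and 2 APC/C genes rose.

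Of 24 regulators of mitotic gene transcription 6 fell and 1 rose in the average, with a median of −0.14. E2f2, an activating E2F, fell by 0.58 ± 0.12 (adjusted p = 0.0046), Nfyb, an NF-Y subunit, by 0.30 ± 0.07 (adjusted p = 0.00943), and Tfdp2, an E2F partner, rose by 0.58 ± 0.13 (adjusted p = 0.00542). Foxm1 was at 63.9 ± 2.0 CPM in untreated and 55.1 ± 4.49 CPM in TGFβ1-treated control cells (mean ± SD, n = 3), and at 75.8 ± 2.67 and 68.8 ± 10.1 CPM in KO cells. Its averaged TGFβ1 difference was −0.18 ± 0.07 (adjusted p = 0.091) and its averaged genotype difference 0.28 ± 0.07 (adjusted p = 0.0743). Mybl2, which encodes B-MYB, was at −0.43 ± 0.15 with TGFβ1 (adjusted p = 0.0562). Without both TGFβ1 replicate 3 libraries both fell, Foxm1 by 0.28 ± 0.06 and Mybl2 by 0.71 ± 0.10 (adjusted p = 0.00173 and 3.43e-05), and 12 of the 24 regulators fell and 1 rose. Cdkn1a, the CDK inhibitor p21 and a known TGFβ target, rose by 1.04 ± 0.18 in the average (adjusted p = 0.00103), from 13.5 ± 1.64 to 24.4 ± 4.87 CPM in control and from 11.3 ± 2.76 to 26.3 ± 8.76 CPM in KO cells (mean ± SD, n = 3). Of the 7 tested CDK inhibitors and D cyclins, 3 fell (Cdkn2c, Ccnd2 and Ccnd3) and Cdkn1a was the 1 that rose. Without both replicate 3 libraries 4 fell and 1 rose.

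Of 44 S phase genes 24 fell and 0 rose in the average, with a median of −0.28, among them Rfc5, a clamp loader subunit (−0.52 ± 0.09, adjusted p = 0.00152), and Mcm5, a subunit of the replicative helicase (−0.41 ± 0.08, adjusted p = 0.00238). Without both TGFβ1 replicate 3 libraries 40 fell, with a median of −0.40. In control cells the S phase medians were −0.33, −0.38 and −0.04 in replicates 1, 2 and 3, beside −0.33, −0.33 and −0.20 for the mitosis genes. In KO cells they were −0.39, −0.33 and −0.02, beside −0.41, −0.39 and −0.21. The difference between the lists in these 2 libraries was not tested.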

How the data were processed

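Messenger RNA of 12 4T1 libraries was primed on the poly(A) tail, tagmented, sequenced single-end and stranded toward the 3′ end and deduplicated by molecular identifiers, per the labels' protocols. Per the submitters' processing notes the build was mm39 and the tools were STAR 2.7.11, featureCounts and Subread 2.1.1 with fastp 0.24.0, edgeR 3.38.4 and SAMtools 1.22.1. For the annotation and settings, nothing was given in the sources used here. The authors deposited estimated counts per gene, per the file headers and the values: 91.8% were whole and the rest fractional, as when a read is divided among genes. Entries for 92 ERCC spike-ins held 0 counts and were removed.

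Counts were rounded, filtered with filterByExpr and scaled by TMM. A model with 1 mean per group was fitted to all 14012 tested genes with edgeR 4.0.16 in R 4.3.3 (quasi-likelihood F test, Benjamini-Hochberg adjusted p below 0.05) for 7 contrasts. The common biological coefficient of variation was 12.5%. Each SE is the log2 fold change divided by √F. The script was tested on simulated data. Alternatives were size factors and library totals as scaling, no filter, at least 10 CPM, DESeq2 1.42.0, limma-voom (limma 3.58.1), only the groups compared, unrounded counts, the replicate number as a block, each library left out and both TGFβ1 replicate 3 libraries left out.

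The members and lists were chosen with earlier results of these data known. Values in every library are given for the 5 members with the smallest p in each TGFβ1 contrast, the 2 with the smallest p in each genotype contrast and the interaction, and the first of each role group; up to 3 genes of another list are named by p, and Foxm1, Mybl2, Cdkn1a and Pbrm1 whatever their values. Cdc27, the marker genes, the genes named by motif and those whose call changed without replicate 3 were named after their values were seen. Deviations of same-numbered libraries from their group means had correlations of 0.396, 0.416 and 0.726 for genotype with TGFβ1. For TGFβ1 in KO cells they were weaker, at 0.201, 0.139 and 0.202. For genotype without TGFβ1 the correlations were 0.149, 0.069 and 0.125, and for TGFβ1 in control cells 0.258, −0.0835 and 0.137. Over the 6 pairs of groups the means were 0.256, 0.109 and 0.263 for replicates 1, 2 and 3. The labels do not say that a number marks a shared day, so p measures the spread between these samples.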

Additional observations from a re-analysis of the deposited data

How the results depend on the processing

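The count of mitosis genes lower with TGFβ1 in the average over genotypes, 27, was within 1.5 times of that value in all 21 alternatives. In control cells (7 lower) it was 11 with at least 10 CPM, 11 with DESeq2 and 17 with the replicate block. Of the 8709, 33568 and 14012 genes in those fits 3.47, 1.42 and 6.35% were lower, so these shares have unlike bases. DESeq2 was given every gene with a count and called 476 lower, against 408 with edgeR. The control count was 20 without both TGFβ1 replicate 3 libraries (10.0% of all genes) and 1 to 15 with 1 library left out (1.02 to 6.31%). In KO cells (12 lower) it was 22 with the replicate block, 23 without both replicate 3 libraries, and 0 to 21 with 1 library left out. The replicate block changed no other count of mitosis genes by over 1.5 times. Over all tested genes it raised the number lower from 408 to 890 for TGFβ1 in control cells, 521 to 1098 in KO cells, and for the KO 33 to 105 without TGFβ1, 28 to 109 with it and 179 to 372 averaged. Without both replicate 3 libraries these were 1426, 1707, 145, 55 and 258, and 2752 against 1488 for TGFβ1 in the average. Median log2 changes ran from −0.13 to 0.00 for genotype with TGFβ1 and from −0.13 to 0.01 for the interaction with 1 library left out, both lowest without KO TGFβ1 replicate 3. No result changed direction past the threshold. The cause of these changes was not tested. By the medians of mitosis genes, S phase genes and TGFβ-SMAD targets, the replicate 3 libraries with TGFβ1 stood nearer to untreated cells in both genotypes. The epithelial marker median did not. Measured from untreated control cells, it was −0.38, −0.40 and −0.63 in control replicates 1, 2 and 3 with TGFβ1, and −0.36, −0.30 and −0.37 in KO cells. Depth limits the member with the lowest mean level most, Dlgap5, which averaged 12.7 CPM over the 12 libraries.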
